A study of Mus musculus with 4 samples.

Results

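Cux1, Cux2, Rorb, Lmo4 and Mef2c are transcriptional regulators that are used to mark upper-layer neurons, or neurons that send their axons to other parts of the telencephalon, in the mouse cortex. These 5 genes, of 31053 mouse genes measured, were looked up by symbol in all 4 count matrices, and each was found there. They were picked with earlier results of these data known. They were followed through every excitatory neuron subtype of the ventromedial prefrontal cortex (vmPFC), and, within subtypes, between neurons with many and with no viral barcode transcripts.

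The samples came from male C57BL/6 mice, injected at 8 weeks of age and sampled several weeks later. Each mouse had received a retrograde virus, rAAV2-retro carrying EGFP with a virus barcode, in each of 5 targets of the vmPFC, namely AI (agranular insular cortex), DMS (dorsomedial striatum), MD (mediodorsal thalamus), BLA (basolateral amygdala) and LH (lateral hypothalamus). The prelimbic and infralimbic areas were dissected and sequenced as single cells (10x Chromium, 3' counting). Unsorted libraries 1, 2 and 3 each came from 1 mouse, and the sorted library came from 3 pooled mice whose cells had been sorted for EGFP. Slices of the unsorted mice were held in CNQX and D-AP5, which block AMPA and NMDA glutamate receptors, before enzymatic dissociation. The study states that tissue of the sorted mice was dissected and dissociated in the same way. All groups share the injections, no uninjected animals are among the samples, and the barcode feature of the matrices was taken to hold all viruses together, which was not tested, so the projection target of a neuron is not given here.

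The libraries held 8040, 7443, 7243 and 2075 cell barcodes, and the study's own table put 2816, 2486, 2463 and 1603 of them (unsorted 1 to 3, then sorted) into 7 excitatory subtypes, 9368 neurons in all. The median neuron of an unsorted library held 21362 to 23213 UMIs (unique molecular identifiers, counted transcripts), and that of the sorted library 31670. Between 5 and 30 cell barcodes were shared by any pair of libraries, 86 in all. Levels are given as counts per 1000000 UMIs (CPM) after summing all neurons of a library and subtype, and the mean ± SD is over the 3 unsorted libraries. Slc17a7, the vesicular glutamate transporter of cortical excitatory neurons, ran from 704 ± 11.6 to 1255 ± 21.2 CPM over the subtypes. Gad1, which makes GABA in inhibitory neurons, ran from 1.01 ± 0.646 to 7.41 ± 3.42 CPM. The study had selected these neurons as excitatory by Slc17a7 and removed cells of other classes. Such values thus largely follow from the selection and do not bear on the 7 subtype labels.

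As background, the cortex is built of layers whose excitatory neurons differ in where their axons go. Neurons of layer 2/3 project mostly within the telencephalon, to other cortex, striatum and amygdala, and those of layers 5 and 6 include cells that reach the thalamus, the hypothalamus and the brainstem. Cux1 and Cux2 are homeodomain proteins of the Cut family that shape dendrites and synapses of upper-layer neurons. Rorb is an orphan nuclear receptor best known from layer 4 and its patterning. Lmo4 is a LIM-only protein that binds no DNA itself and acts through partners such as Ldb1. Mef2c is a MADS-box factor that activity-dependent signals act on and that controls synapse number.

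All 5 genes are annotated as protein coding in GENCODE M21 on GRCm38. Cux1 (ENSMUSG00000029705) spans chromosome 5 from 136248135 to 136567490 and Cux2 (ENSMUSG00000042589) spans chromosome 5 from 121856366 to 122050102, both on the minus strand. Rorb (ENSMUSG00000036192) lies on chromosome 19 from 18930605 to 19111196 and Lmo4 (ENSMUSG00000028266) on chromosome 3 from 144188530 to 144205220, again on the minus strand. Mef2c (ENSMUSG00000005583) lies on chromosome 13 from 83504034 to 83667080 on the plus strand. Cux1 overlaps 4 other annotated genes, 3 of them on its own strand (A430110C17Rik, Mir721 and Gm38082), and Lmo4 overlaps Gm43445 on its own strand, so a few of their counts could belong to those. The 2 genes that overlap Cux2, Gm3970 and Gm15637, are antisense, and Rorb and Mef2c overlap none.

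Cux2 and Rorb are the members whose levels passed the test in a subtype below, and the 250 bases before 1 annotated start of each are shown for that reason. Both are from RefSeq on build GRCm38.p6, minus strand, written 5′ to 3′ in the direction of transcription. Capitals mark every match, on either strand, to ATCGAT (letters that Cut-family proteins can bind), to the TATA box letters TATAAA, to the letters CCAAT and to AGGTCA (letters that nuclear receptors can bind).
Cux2, upstream of its second start, chr5:122047826-122048075: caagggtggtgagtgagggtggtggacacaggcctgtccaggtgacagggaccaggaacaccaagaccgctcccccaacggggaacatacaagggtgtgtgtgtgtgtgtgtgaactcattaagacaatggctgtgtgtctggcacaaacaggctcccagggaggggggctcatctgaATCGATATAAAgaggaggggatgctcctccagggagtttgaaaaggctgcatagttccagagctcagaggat
Rorb, upstream of its first start, chr19:19111197-19111446: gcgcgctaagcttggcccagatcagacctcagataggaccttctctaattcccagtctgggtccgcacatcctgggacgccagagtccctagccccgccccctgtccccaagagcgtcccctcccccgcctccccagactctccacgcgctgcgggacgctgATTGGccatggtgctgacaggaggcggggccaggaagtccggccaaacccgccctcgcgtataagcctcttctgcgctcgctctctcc
In the Cux2 stretch ATCGAT begins at -72 and overlaps the TATA box letters, which begin at -67 (positions count from the start). Of 32851 mouse promoter windows (250 bases before to 50 after a start), 304 or 0.925% hold ATCGAT and 13.6% hold the TATA box letters on either strand. The Rorb stretch holds CCAAT on the other strand at -88, printed as ATTGG and found in 37.4% of windows, and GGGCGG, not capitalised, at -156 and -40, found in 35.7%. The other Cux2 start and the Cux1 start hold none of the 4 capitalised letter strings. These are matches of letters, and no binding was measured.

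Cux2 was sharply divided between layer 2/3 and the other subtypes. The study used Cux2 as its layer 2/3 marker when it named the subtypes, so the labels partly set this division in advance. It reached 155, 187 and 147 CPM in L2/3-Calb1 (unsorted 1 to 3) and 148, 142 and 130 CPM in L2/3-Rorb. The ranges of these subtypes overlapped, so their order is not resolved. Every other subtype was far lower, with L5-S100b at 4.85 ± 2.82, L5-Bcl6 at 2.29 ± 2.50 and L5-Htr2c at 1.70 ± 0.284 CPM (SD, n = 3). L6-Npy and L6-Syt6 were lowest, at 0.980 ± 1.08 and 0.778 ± 0.224 CPM, and the ranges of neighbours overlapped all the way from L5-S100b down. Within L5-S100b, unsorted library 1 stood at 8.10 CPM against 3.42 and 3.02 in the others, and in L6-Npy unsorted library 3 stood at 2.23 against 0.345 and 0.369. In L5-Bcl6 unsorted library 1 stood at 5.14 CPM against 1.28 and 0.451.

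Rorb, for which a subtype is named, was highest there and had a clear second place. In L2/3-Rorb it measured 173, 172 and 183 CPM and in L5-S100b 79.0, 68.2 and 78.8 CPM, with no overlap between them or with any lower subtype. L5-Bcl6 (17.5 ± 6.91) and L5-Htr2c (15.7 ± 1.73) overlapped each other. L2/3-Calb1, the other layer 2/3 subtype, had only 7.44 ± 2.12 CPM, below L5-Htr2c in every unsorted library. L6-Syt6 (2.82 ± 0.558) and L6-Npy (2.53 ± 0.710) overlapped at the bottom, and the highest mean was 69.5-fold the lowest (SD, n = 3). High Cux2 was thus found in both layer 2/3 subtypes and high Rorb in only 1 of them, with L5-S100b next.

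Cux1, the closest relative of Cux2, was spread far more widely. It was at 45.8 ± 2.04 CPM in L2/3-Rorb and at 36.3 ± 2.50 in L2/3-Calb1, but also at 43.2 ± 4.82 in L5-Htr2c, where Cux2 was all but missing (SD, n = 3). The range of L5-Htr2c (38.5 to 48.1 CPM) overlapped both layer 2/3 subtypes. L5-Bcl6 (17.8 ± 3.00) and L6-Syt6 (17.5 ± 0.120) overlapped, L5-S100b followed at 15.9 ± 1.24, and L6-Npy was lowest at 9.38 ± 1.26. The span from lowest to highest was 4.89-fold.

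Lmo4 and Mef2c were present in every subtype and graded between them. Lmo4 fell from 1745 ± 70.8 CPM in L2/3-Rorb through L5-S100b (1502 ± 81.1), L2/3-Calb1 (1410 ± 39.9) and L6-Npy (1141 ± 53.5) to L6-Syt6 (759 ± 24.2), L5-Bcl6 (515 ± 24.5) and L5-Htr2c (427 ± 22.5). Its only overlapping neighbours were L5-S100b and L2/3-Calb1, and the span was 4.09-fold (SD, n = 3). Mef2c ran from 3421 ± 106 CPM in L2/3-Rorb through L5-S100b (2520 ± 62.0), L5-Bcl6 (2222 ± 60.6) and L2/3-Calb1 (2120 ± 112), which overlapped, to L6-Npy (1571 ± 56.8), L5-Htr2c (1237 ± 85.5) and L6-Syt6 (770 ± 16.9). L5-Bcl6 thus held a high place for Mef2c and a low one for Lmo4. L2/3-Rorb had the highest mean of 4 of the 5 genes, all but Cux2. The subtypes were defined on the expression of these same neurons, so no test between subtypes is given, and levels are compared here only within a gene.

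**Figure D1:**
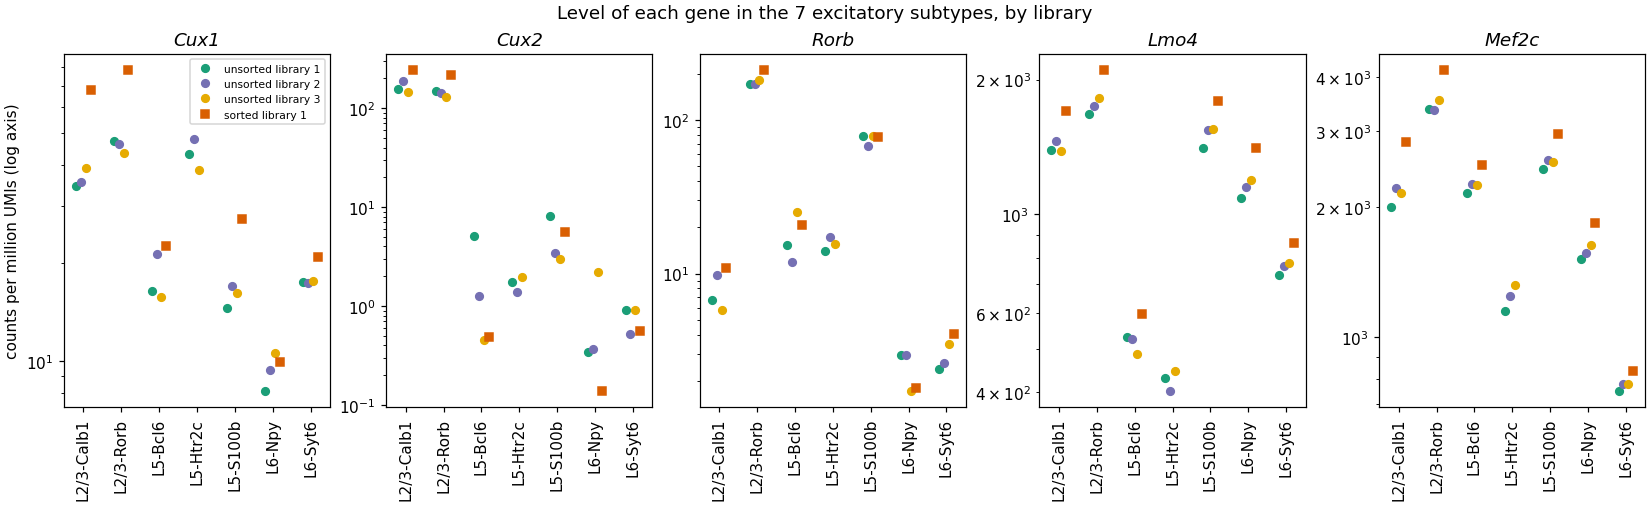
Level of each gene in CPM (log axis) in the 7 excitatory subtypes, with 1 circle for each unsorted library and a square for the sorted library, which had too few L5-Htr2c neurons for a value. Cux2 lies between 130 and 187 CPM in the unsorted layer 2/3 sums and at or below 8.10 CPM in the other unsorted sums, whereas the mean of Lmo4 spans 4.09-fold and that of Mef2c 4.44-fold.

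After each neuron was thinned to 10000 UMIs, the share of neurons with at least 1 UMI gave a similar picture for Cux2 and Rorb. Lmo4 had its lowest share in L5-Bcl6 but its lowest CPM in L5-Htr2c. The shares of Lmo4 and Mef2c were mostly near 100% and cannot show a graded order. Cux2 was detected in 70.8% ± 5.03 of L2/3-Calb1 and 69.8% ± 2.23 of L2/3-Rorb neurons, and in 0.688% ± 0.265 of L6-Syt6 neurons (SD, n = 3). Rorb was detected in 68.0% ± 1.22 of L2/3-Rorb, 32.3% ± 4.21 of L5-S100b and 2.50% ± 0.704 of L6-Syt6 neurons. Cux1 was detected in 30.2% to 34.4% of neurons in L2/3-Rorb, L2/3-Calb1 and L5-Htr2c and in 9.66% ± 1.13 in L6-Npy. Lmo4 was detected in 79.8% ± 2.04 of L5-Bcl6 neurons and in at least 95.1% elsewhere, and Mef2c in at least 99.6% of every subtype.

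The floor for these shares was read in endothelial-like cells, where both genes were near 0, with every cell thinned to 2000 UMIs. Mural-like cells, the other vessel class, were not used, since 5.49% ± 0.891 of them held a Rorb UMI. The class was thus chosen by its values of these genes, and the floor depends on that choice. Cux2 was seen in 0.657% ± 0.0177 of mural-like and 1.06% ± 0.222 of microglia-like cells. It was seen in 0.392% ± 0.131 of endothelial-like cells (median depth 2825 UMIs before thinning) and in 0.160% ± 0.0982 of L6-Syt6 neurons. In L2/3-Calb1 and L2/3-Rorb it was seen in 26.5% ± 1.68 and 25.6% ± 3.42. L6-Npy, at 0.367% ± 0.364, was also at or below the endothelial-like share, so Cux2 in both layer 6 subtypes is not told apart from background. Whether it is background was not tested. L5-Bcl6 was at 0%, and L5-S100b and L5-Htr2c were at 0.989% ± 1.22 and 1.02% ± 1.02. The spread of these last values reaches the endothelial-like share, so Cux2 in L5-S100b is not set apart from the floor either. Rorb was seen in 0.155% ± 0.136 of endothelial-like cells, 0.653% ± 0.135 of L6-Syt6, 12.8% ± 1.62 of L5-S100b and 25.6% ± 3.06 of L2/3-Rorb neurons (SD, n = 3). Of L2/3-Rorb neurons thinned to 10000 UMIs, 48.9% ± 3.70 held UMIs of both Cux2 and Rorb, and the product of the separate shares was 47.4% ± 1.61 (SD, n = 3). The genes were thus found together there about as often as their shares multiply to, within the spread between libraries.

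The sorted library gave higher levels of most of these genes, in a library of 3 pooled mice whose neurons were also deeper, so that it is set beside the others without a test. Cux1 was at 78.2 CPM in L2/3-Rorb, 68.1 in L2/3-Calb1 and 27.4 in L5-S100b, which is 0.76, 0.89 and 0.74 above the unsorted mean on the log2 scale. Over all genes of at least 20 CPM the median of that log2 difference was 0.12, 0.13 and 0.09 in these subtypes. Cux2 was at 243 CPM in L2/3-Calb1 and 216 CPM in L2/3-Rorb, 0.58 and 0.62 above on the log2 scale. Lmo4 and Mef2c lay above all 3 unsorted libraries in 6 of 6 subtypes, by 0.18 to 0.30 and by 0.12 to 0.41. Cux1 did so in 5 of 6, Rorb in 3 of 6 and Cux2 in 2 of 6, and Cux2 in L6-Npy, with 1 UMI, was below all 3. Such positions are common: of all genes of at least 20 CPM, 53.7% in L6-Npy, 53.1% in L6-Syt6, 52.6% in L5-S100b, 52.3% in L2/3-Rorb, 50.1% in L2/3-Calb1 and 47.4% in L5-Bcl6 lay above all 3, and 31.2% to 35.6% below. The part of the sort, the pooling and the depth in these differences cannot be told apart.

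Genes with the most similar pattern were ranked by Pearson's r of log2(CPM + 1) over 27 sums of library and subtype, among 7084 genes, as a description in which the sums share libraries. Cux2 was followed by Mlip (0.944), the synaptic vesicle gene Synpr (0.927) and Mettl9 (0.903). Rorb was followed by its paralog Rora (0.943), AI593442 (0.932) and the T-type calcium channel gene Cacna1i (0.925). Rora itself was at 116 ± 5.81 CPM in L2/3-Rorb and 93.5 ± 4.95 in L5-S100b, and at 15.2 ± 1.76 in L6-Npy (SD, n = 3). Cux1 was followed by Samd4 (0.917), Dgkh (0.862) and Ildr2 (0.857), and Lmo4 by Herc6 (0.961), the cadherin gene Cdh12 (0.956) and Sorbs2 (0.949). Mef2c was followed by Cntn4 (0.972), the potassium channel gene Kcnb2 (0.950) and Bmp1 (0.949). Among the 5 genes themselves r was highest for Rorb with Mef2c (0.760) and Cux1 with Cux2 (0.736) and lowest for Cux1 with Lmo4 (0.156).

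Several relatives and partners of these genes followed other orders. Mef2d, a paralog of Mef2c, was at 151 ± 4.70 to 165 ± 6.22 CPM over all subtypes, and Ldb1, the partner of Lmo4, at 23.9 ± 1.04 to 27.8 ± 4.43. Lmo3 was highest in L5-Htr2c (443 ± 19.7 CPM), where Lmo4 was lowest, and Lmo1 in L6-Syt6 (158 ± 5.49). Mef2a was highest in L6-Syt6 (238 ± 6.28), where Mef2c was lowest. Bhlhe22, another upper-layer regulator, was at 288 ± 19.5 CPM in L2/3-Calb1 and at 65.0 ± 1.55 in L2/3-Rorb (SD, n = 3). Fezf2, which directs layer 5 neurons to project below the cortex, was at 4.23 ± 3.62 CPM in L2/3-Calb1 and 277 ± 12.4 in L5-Htr2c.

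Cells outside the excitatory neuron table were grouped anew to see where else the 5 genes are transcribed. Of 11895 such cells in 37 clusters, 24 clusters took a class from their markers, and 13 clusters with 1071 cells stayed unnamed because they held markers of more than 1 class or fewer than 3 markers of any. No doublet caller was run. Rorb was at 572 ± 100 CPM in astrocyte-like cells, far above every excitatory subtype on the same scale, and was detected in 67.2% ± 7.55 of them at 2000 UMIs (SD, n = 3). It was at 50.4 ± 3.53 CPM in oligodendrocyte precursor-like cells, 23.0 ± 7.03 in mural-like cells and 3.10 ± 2.15 in inhibitory-like neurons.

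Cux2 outside layer 2/3 was found in oligodendrocyte precursor-like cells (43.1 ± 3.68 CPM) and inhibitory-like neurons (36.9 ± 1.49), with 2.39 ± 0.342 in endothelial-like cells. Among inhibitory-like clusters it was at 59.6 ± 4.23 CPM in the one led by Pvalb (83 cells) and 57.6 ± 5.60 in the one led by Sst (363 cells), against 17.0 ± 3.68 in the one led by Vip (456 cells) and 14.6 ± 3.20 in the one led by Cnr1 and Cck (217 cells). A cluster of 148 cells led by Npy had 39.1 ± 7.45 CPM, and small clusters led by Calb2 (48 cells) and by Vip, Adarb2 and Sst (62 cells) varied too much between libraries to be placed, at 42.6 ± 47.2 and 64.3 ± 38.4. Cux1 was broad, from 25.0 ± 12.2 CPM in the leftover excitatory-like cells and 37.8 ± 1.51 in inhibitory-like neurons to 87.7 ± 3.64 in oligodendrocyte precursor-like and 87.2 ± 5.10 in microglia-like cells. In these last classes every unsorted library lay above the highest unsorted value of Cux1 in any excitatory subtype. Mef2c was at 732 ± 21.4 CPM in microglia-like cells, 679 ± 22.7 in inhibitory-like neurons, 564 ± 24.3 in mural-like and 245 ± 9.63 in endothelial-like cells, and at 14.3 ± 3.07 in oligodendrocyte-like cells. The cluster led by Pvalb had 1679 ± 126 CPM of Mef2c and the small one led by Calb2 1091 ± 162, against 452 ± 40.6 to 730 ± 27.6 in those led by Sst, Vip, Npy and Cnr1. Lmo4 was at 243 ± 8.57 CPM in astrocyte-like and 180 ± 20.4 in oligodendrocyte precursor-like cells and lower in the other non-neuronal classes. All of these levels are descriptions, since the clusters were made from the same counts.

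**Figure D2:**
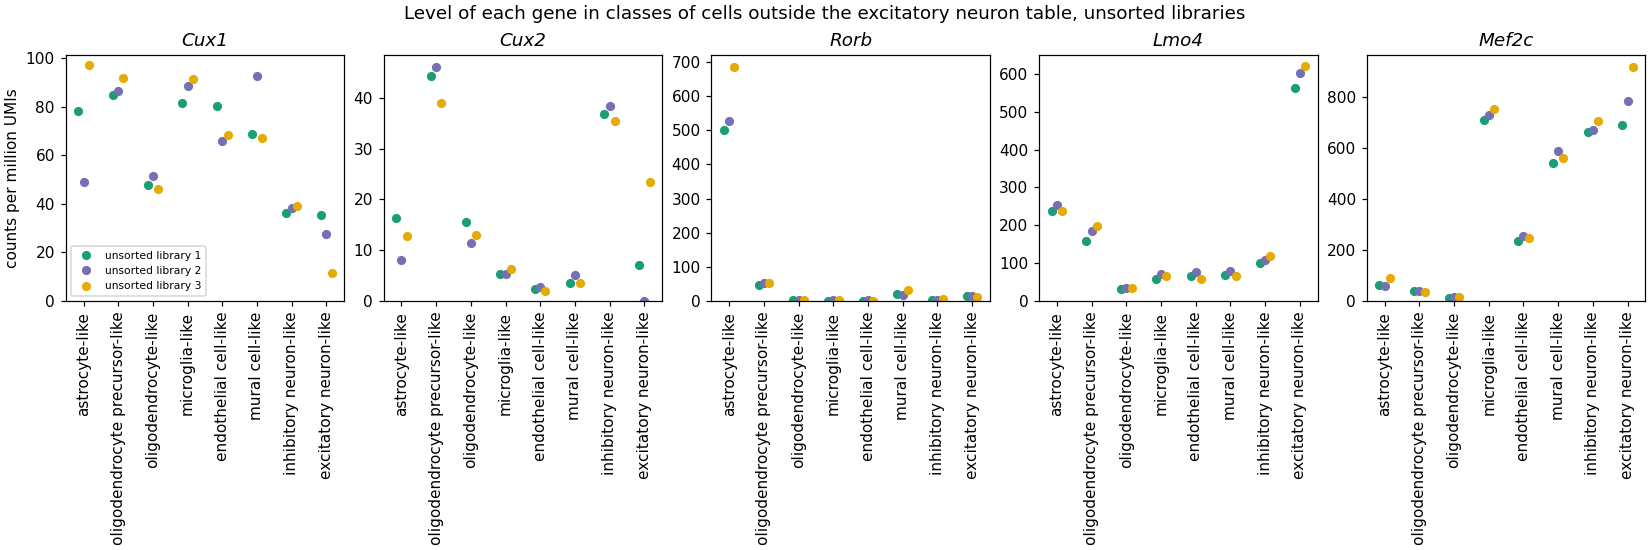
Level of each gene in CPM (linear axes from 0) in 8 classes of cells outside the excitatory neuron table, with 1 point for each unsorted library. Rorb stands highest in astrocyte-like cells (572 ± 100 CPM), Cux2 in oligodendrocyte precursor-like cells and inhibitory-like neurons, and the excitatory-like class holds 239 leftover cells of low depth.

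Within each subtype, the 5 genes were then compared between neurons rich in viral transcripts and neurons without any. Barcode-high neurons had 5 or more raw UMIs of the barcode feature and barcode-zero neurons had 0, which does not show that no virus reached them. Counts were summed per library and group and tested with edgeR's quasi-likelihood test with the library as a block, and a gene was called where its Benjamini-Hochberg adjusted p over all genes was below 0.05 and its level shifted by 0.5 or more, up or down, on the log2 scale. L2/3-Calb1 and L5-Bcl6 were fitted on the 3 unsorted libraries because the sorted library had under 10 barcode-zero neurons of each. L5-Htr2c was not fitted, with 10 barcode-high neurons in all. The barcode-zero neurons of the sorted library had passed the EGFP sort.

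Cux2 was lower in barcode-high than in barcode-zero L5-S100b neurons. In barcode-zero neurons it was at 28.8, 3.24 and 11.6 CPM in unsorted libraries 1 to 3 and at 4.17 CPM in the sorted library. In barcode-high neurons it was at 3.96, 1.64 and 2.12 CPM and at 2.62 CPM. It was lower in 4 of 4 libraries, but by far most in unsorted library 1, and the values of the groups overlapped. The means were 12.0 ± 11.8 and 2.59 ± 0.997 CPM (SD, n = 4), a log2 fold change of barcode-high over barcode-zero of -2.18 with SE 0.340 (adjusted p 3.77e-05 by edgeR's quasi-likelihood test with Benjamini-Hochberg adjustment). Cux2 was the only one of the 5 tested genes called in this subtype, where 2.64% of 12030 genes were called and 1.57% were called lower.

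The Cux2 counts behind this came from few neurons, in a subtype whose Cux2 share was not set apart from the floor above. In the barcode-zero groups 35, 3, 12 and 3 UMIs lay in 12, 1, 5 and 1 neurons of 74, 43, 54 and 24 (unsorted 1 to 3, then sorted). In the barcode-high groups 28, 11, 15 and 19 UMIs lay in 17, 8, 6 and 12 neurons of 270, 242, 239 and 207. The share of neurons with a Cux2 UMI was higher among barcode-zero neurons in unsorted libraries 1 (16.2% against 6.30%) and 3 (9.26% against 2.51%), and lower in unsorted library 2 (2.33% against 3.31%) and the sorted library (4.17% against 5.80%). Barcode-zero neurons were also shallower, with median depths of 19306.5 to 28185 UMIs per library against 25596.5 to 34397. Without unsorted library 1 the log2 fold change was -1.57 and the call was lost (adjusted p 0.0886, edgeR quasi-likelihood test with Benjamini-Hochberg adjustment), and without a library term it was -2.32 (adjusted p 0.0960). Over all 10 alternatives the value ran from -2.55 to -1.57 and the adjusted p from 1.85e-09 to 0.0960, with 8 keeping the call.

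Some other genes moved with Cux2 in the same contrast and some did not. Mlip and Mettl9, also among the genes most like Cux2, were at -0.30 and -0.014 for L5-S100b in the joint fit of subtypes given below. Bhlhe22 and Lhx2, whose highest means were in L2/3-Calb1, were at 0.16 and 0.62 there. Synpr, noted above for its likeness to Cux2, was lower by edgeR's quasi-likelihood test (log2 fold change -1.13, Benjamini-Hochberg adjusted p 8.69e-06), as were the subtype name genes Calb1 (-1.01, 0.0268, lower in 3 of 4 libraries) and Bcl6 (-1.23, 0.0210), while S100b was higher (1.17, 3.25e-05). The 6 inhibitory neuron markers summed to 0 to 7.56 CPM in barcode-zero and 0.551 to 6.50 CPM in barcode-high neurons, with 3 of 6 at 0 in each unsorted and 6 of 6 in the sorted barcode-zero group. The 5 oligodendrocyte precursor markers summed to 1.39 to 10.8 and 1.10 to 6.66 CPM. When neurons with markers of other classes were left out the log2 fold change of Cux2 was -2.55 (adjusted p 7.54e-05 by the same test). The part of layer 2/3 neurons among those labelled L5-S100b in this difference was not tested.

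In L2/3-Rorb, where Cux2 is abundant, its shift was small. It was at 159, 147, 162 and 323 CPM in barcode-zero and at 137, 129, 116 and 199 CPM in barcode-high neurons (unsorted 1 to 3, then sorted), lower in 4 of 4 libraries. The sorted barcode-zero value rests on 15 neurons and is the highest of all. The shift was -0.39 on the log2 scale (SE 0.0869, adjusted p 0.0193 by edgeR's quasi-likelihood test with Benjamini-Hochberg adjustment), under the size for a call, in a subtype where 0.246% of genes had an adjusted p under 0.05. Only 3 of 10 alternatives kept it below 0.05. Leaving out the sorted library gave -0.28 (adjusted p 0.342, edgeR with Benjamini-Hochberg adjustment). In finer bins no steady order showed in every library: unsorted library 1 had 159, 189, 150 and 131 CPM at 0, 1 to 4, 5 to 14 and 15 or more barcode UMIs, and the sorted library had 323, 209, 231 and 174. None of the 5 tested genes was called in L2/3-Rorb, where 0.142% of 10572 genes were, with 2 of the 5 at an unadjusted p under 0.05 by edgeR and 1 by DESeq2. The second was Cux1, at 0.36 (SE 0.155, adjusted p 0.619 by edgeR with Benjamini-Hochberg adjustment), with 36.4, 44.7, 44.3 and 42.1 CPM against 48.7, 50.6, 40.1 and 85.8.

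Rorb was slightly higher in barcode-high than in barcode-zero L6-Syt6 neurons, at low levels. At 2000 UMIs it was seen in 0.653% ± 0.135 of L6-Syt6 neurons and 0.155% ± 0.136 of endothelial-like cells (SD, n = 3). Barcode-zero neurons had 1.84, 2.25, 2.96 and 3.71 CPM and barcode-high neurons 3.18, 3.47, 4.48 and 4.52 CPM (unsorted 1 to 3, then sorted). It was higher in 4 of 4 libraries while the groups overlapped. In each library 8 to 34 barcode-zero and 28 to 59 barcode-high neurons held a Rorb UMI. The means were 2.69 ± 0.823 and 3.91 ± 0.685 CPM (SD, n = 4), a difference of 0.65 on the log2 scale (SE 0.158, adjusted p 0.0410 by edgeR's quasi-likelihood test with Benjamini-Hochberg adjustment). Astrocytes hold far more Rorb, and their 6 markers summed to 17.5 to 25.0 CPM in barcode-zero and 15.5 to 23.7 CPM in barcode-high L6-Syt6 neurons, with up to 4 and up to 2 of the 6 at 0 in a library. Without neurons holding markers of other classes the value was 0.62 (adjusted p 0.0693 by the same test). By barcode bin, the level at 15 or more UMIs was the highest of the bins in each library, at 3.97, 4.19, 5.18 and 5.29 CPM. Rorb was the only one of the 5 genes called in L6-Syt6, where 1.67% of 13436 genes were called and 0.796% were called higher. The direction held in all 10 alternatives (0.43 to 0.70), but only 2 kept the call. It was lost under DESeq2 (adjusted p 0.185) and without unsorted library 1, 2 or 3 (0.158, 0.170 and 0.157 by edgeR with Benjamini-Hochberg adjustment).

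The other subtypes gave no call for any of the genes tested. In L2/3-Calb1 none of 4 was called, against 0.183% of 8727 genes, with 1 of 4 at an unadjusted p under 0.05 by edgeR and 0 by DESeq2. That was Cux2, at 166, 182 and 124 CPM in barcode-zero and 163, 209 and 193 CPM in barcode-high neurons, a shift of 0.27 on the log2 scale (SE 0.131, adjusted p 0.863 by edgeR with Benjamini-Hochberg adjustment). In L5-Bcl6 none of 4 was called, against 0.0659% of 9107 genes, with 1 at an unadjusted p under 0.05 by edgeR and 0 by DESeq2. That was Lmo4, at 379, 488 and 427 CPM against 526, 528 and 480 CPM, higher in 3 of 3 libraries (0.25, SE 0.0833, adjusted p 0.585 by edgeR with Benjamini-Hochberg adjustment). In L6-Npy none of 3 was called, against 0.775% of 10839 genes, with 1, Mef2c, at an unadjusted p under 0.05 by edgeR (log2 fold change 0.08) and 0 by DESeq2.

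Some of the genes were too sparse to be tested. Rorb in L2/3-Calb1 had 33 UMIs in barcode-zero and 7 in barcode-high neurons, at 9.86, 13.7 and 8.03 CPM against 3.57, 5.49 and 3.26 CPM, lower in 3 of 3 libraries. Rorb in L6-Npy had 9 and 37 UMIs and was higher in barcode-high neurons in 3 of 4 libraries. Cux2 had 5 and 8 UMIs in L5-Bcl6 and 5 and 5 in L6-Npy. Across the fits within subtypes, Lmo4 stayed between -0.11 and 0.25 and Mef2c between -0.05 and 0.08 on the log2 scale.

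**Figure D3:**
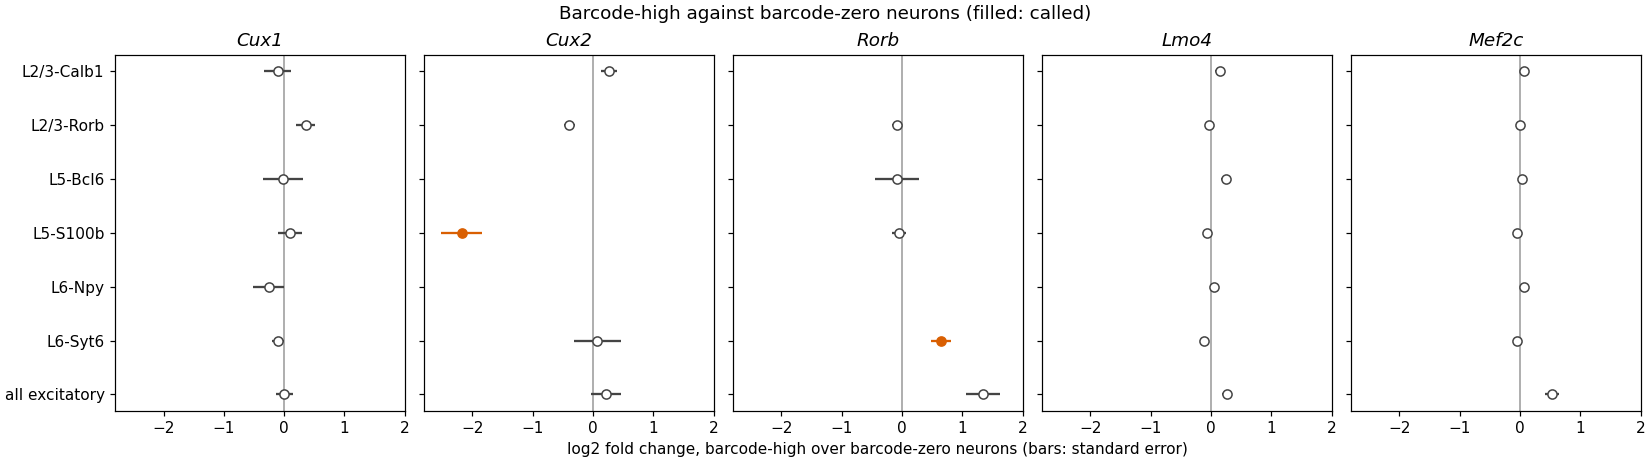
Barcode-high over barcode-zero neurons, as log2 fold change, for each gene (columns) in each fit (rows), with the standard error as a bar and filled points for calls. Cux2 in L5-S100b (-2.18) and Rorb in L6-Syt6 (0.65) are the filled points, and the points of Lmo4 and Mef2c within subtypes lie between -0.11 and 0.25.

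All excitatory neurons were also compared as 1 pool, in which barcode-zero and barcode-high neurons hold different shares of the subtypes. The part of those shares in the values was not tested. Rorb was at 13.1, 10.6, 14.96 and 35.6 CPM in barcode-zero and 43.2, 36.2, 45.9 and 34.7 CPM in barcode-high neurons (unsorted 1 to 3, then sorted). The groups did not overlap in the unsorted libraries and were nearly equal in the sorted one. The shift of Rorb was 1.34 on the log2 scale (SE 0.284, adjusted p 0.0635 by edgeR's quasi-likelihood test with Benjamini-Hochberg adjustment). Mef2c had 1082, 1136, 1116 and 1766 CPM against 1717, 1743, 1840 and 1758 CPM, a shift of 0.53 on the log2 scale (SE 0.110, adjusted p 0.0610 by the same test). Lmo4 (0.26), Cux2 (0.21) and Cux1 (0.00) had adjusted p-values of 0.129, 0.719 and 0.998 by edgeR with Benjamini-Hochberg adjustment. None of the 5 was called, against 2.37% of 14666 genes, with 3 at an unadjusted p under 0.05 by edgeR. DESeq2 called 2 of them, and 524 genes in all. Without the sorted library Rorb (1.70), Mef2c (0.67) and Cux2 (0.51) were called, in a fit that called far more genes. Without any 1 of the unsorted libraries none was, where 0 of all genes were called.

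**Figure D4:**
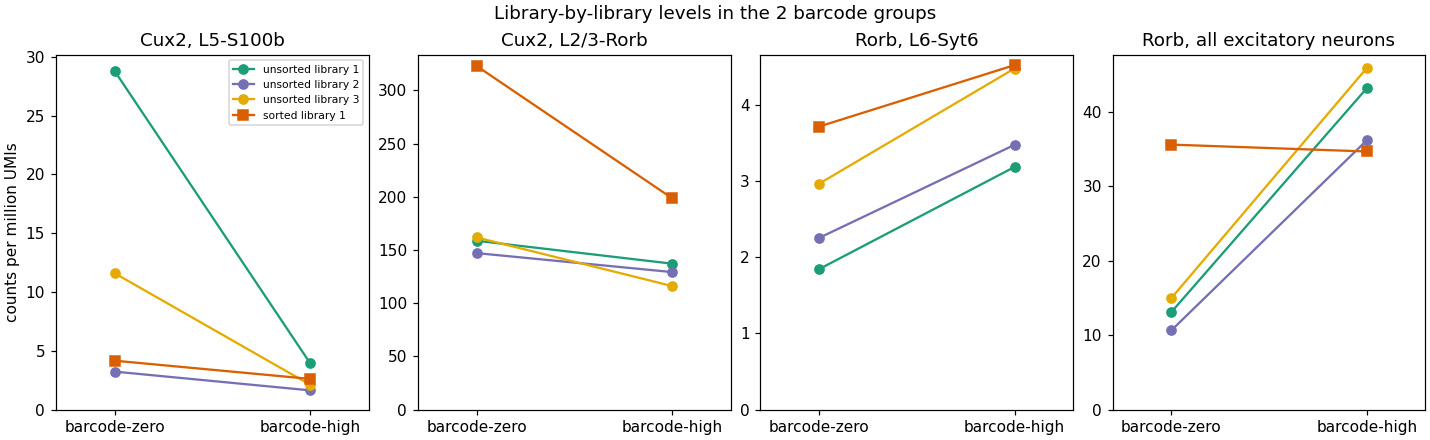
Level in CPM (linear axes from 0) in barcode-zero and barcode-high neurons, with 1 line for each library, for Cux2 in L5-S100b and L2/3-Rorb and for Rorb in L6-Syt6 and in all excitatory neurons. The fall of Cux2 in L5-S100b is steepest in unsorted library 1 (28.8 to 3.96 CPM), and the line of the sorted library is nearly flat for Rorb in all excitatory neurons (35.6 and 34.7 CPM).

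In a joint test the barcode effect of Cux2 differed between subtypes, but the test draws in part on subtypes with few Cux2 UMIs. In 1 fit of 4 subtypes its effect on the log2 scale was -2.23 for L5-S100b, -1.37 for L6-Npy, -0.38 for L2/3-Rorb and 0.08 for L6-Syt6, and the adjusted p of the difference was 0.00184 (edgeR quasi-likelihood test, Benjamini-Hochberg adjustment). Cux2 in both layer 6 subtypes was not told apart from background above. The value for L6-Npy rests on 5 and 5 UMIs, too few for a test in that subtype alone. The adjusted p thus rests in part on effects that cannot be read. The difference between L2/3-Rorb and L5-S100b alone was not tested. Cux2 was the only one of the 5 genes past 0.05, against 7.07% of 12574 genes. Rorb, Lmo4, Cux1 and Mef2c had adjusted p-values of 0.0980, 0.256, 0.355 and 0.392 by the same test. The difference for Cux2 was lost without unsorted library 1 (0.233), and without the sorted library Lmo4 and Mef2c passed as well (0.00869 and 0.0136, edgeR with Benjamini-Hochberg adjustment). Over all genes, fewer passed without unsorted library 1 and more passed without the sorted library than in the main fit.

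Related regulators were looked up in the same fits, by lists that were chosen with earlier results of these data known. Of 6 other upper-layer and intratelencephalic factors, Lhx2, a LIM-homeodomain factor, was higher in barcode-high L5-S100b neurons (0.60, adjusted p 0.000381 by edgeR with Benjamini-Hochberg adjustment), and Pou3f3 was lower in L6-Syt6 (-0.83, adjusted p 0.000507), 1 call of 6 in each, where 2.64% and 1.67% of all genes were called. Their list medians were 0.20 and -0.35 there, against -0.00 over all genes tested in each. None of the tested family members and partners (6 of 9 tested in each subtype) was called in any fit, with medians of -0.12 to 0.05. Of 9 deep-layer and extratelencephalic factors, Fezf2 (0.55) and Tbr1 (0.53) rose and Bcl11b (-0.71) and Nfib (-0.58) fell in barcode-high L5-S100b neurons, with adjusted p-values of 0.00318, 1.45e-05, 0.00124 and 2.54e-07 (edgeR, Benjamini-Hochberg), which is 4 calls of 9 where 2.64% of all genes were called. With all excitatory neurons pooled, where 2.37% were called, Lhx2 (1.43), Rora (0.81) and Etv1 (0.68) were higher, with adjusted p-values of 0.0160, 0.0214 and 0.0196 (edgeR, Benjamini-Hochberg). Of the genes most like the 5, Cdh12 (0.52) and Synpr (0.83) rose in L6-Syt6 (adjusted p 0.0389 and 0.0413, edgeR with Benjamini-Hochberg adjustment).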

How the data were processed

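Per the file headers and the study's methods, the authors aligned Chromium 3' v3 reads with Cell Ranger 3.0.2 to mm10 and deposited UMI counts per gene and cell, and the total count and subtype per excitatory neuron in a table made with Seurat 3.1.4 (version per the labels). Their filters were 500 to 8000 genes, 1000 to 60000 UMIs and under 20% mitochondrial counts. The 5 genes and the lists were chosen with earlier results of these data known: Cux2 in L5-S100b and Rorb in L6-Syt6 were already known to change, so they are no independent evidence.

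Raw counts were joined to subtypes by cell barcode, with totals that differed by at most 70 UMIs, and summed per library and subtype (at least 10 neurons) and barcode group. The viral feature (0.0319% to 0.0384% of UMIs) was left out of totals and tests. Sums were tested with edgeR 4.0.16 in R 4.3.3 (TMM, filterByExpr, quasi-likelihood test, library as a block), and DESeq2 1.42.0 was an alternative. Other alternatives were no filter, no library term, 1 or more barcode UMIs in place of 5, neurons of 15000 to 35000 UMIs, leaving out 2398 neurons with 3 or more UMIs of another class's markers, and leaving out each library. The fits were also run on simulated counts with planted changes, as a check of the code alone. For shares, neurons were thinned to 10000 UMIs (5000 as an alternative) and, against other classes, to 2000. Cells outside the neuron table were clustered with scanpy 1.11.5 (2000 variable genes, 30 components, resolution 1.0) and named from fixed markers, at least 3 in a cluster. The genes named were the 5, the 3 most alike to each (mean of at least 20 CPM) and listed genes that passed the call rule. Unsorted libraries come from separate mice, whereas the sorted library is 1 library. UMIs keep amplified copies of a molecule from being counted again, and differences between cells, libraries and mice remain. Positions are from GENCODE M21, promoters from RefSeq.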

Additional observations from a re-analysis of the deposited data

Results flagged for a closer look

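Cux2 was flagged because its barcode effect differed between subtypes by the test of the difference itself (adjusted p 0.00184, edgeR quasi-likelihood test with Benjamini-Hochberg adjustment). The effect on the log2 scale was -2.23 for L5-S100b, -0.38 for L2/3-Rorb and 0.08 for L6-Syt6, and -1.37 for L6-Npy, which rests on 5 and 5 UMIs. Cux2 in L6-Syt6 and L6-Npy was at or below the share seen in endothelial-like cells, so these effects cannot be told apart from those of background counts. Whether they are background was not tested. The test of the difference draws on them, and the difference between L5-S100b and L2/3-Rorb alone was not tested. By DESeq2 the adjusted p was 0.04998. Without unsorted library 1 it was 0.233, and with barcode-positive neurons of 1 or more UMIs it was 0.0926. Without unsorted library 3 it was 0.0304 and without the sorted library 2.90e-06. The cause was not tested. With 3 unsorted libraries and 1 sorted library, no group had enough samples for a check of outlying libraries.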

How the results depend on the processing

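Of the log2 fold changes of the 5 genes under the alternatives, 254 kept their direction and side of the call, 9 gained and 10 lost a call, and 24 turned sign, all of them uncalled. The cause was not tested in any of these. The CPM of unsorted sums moved by over 1 SD in 14 cases and by less in 161, and Cux2 in L5-S100b was 9.85 CPM as a mean over neurons in place of 4.85. Shares moved with the depth of thinning in 61 cases and not in 9.

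Cux2 in L5-S100b lost its call without unsorted library 1 (-1.57, adjusted p 0.0886) and with no library term (members called 0, -2.32), and the range without 1 library each was 0 to 1 members. Rorb in L6-Syt6 was called in 0 of the fits with 1 or more barcode UMIs, DESeq2, neurons of 15000 to 35000 UMIs, no library term and no marker-positive neurons, and in 0 to 1 without 1 library each. In all excitatory neurons 2 members were called with DESeq2, with neurons of 15000 to 35000 UMIs and with no filter (Rorb and Mef2c), and 0 to 3 without 1 library each.

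The number of genes called moved more. With 1 or more barcode UMIs it was 4 in L2/3-Calb1 (16 as reported), 9 in L2/3-Rorb (15), 0 in L5-Bcl6 (6, with 595 at an unadjusted p under 0.05), 27 in L6-Npy (84), 25 in L6-Syt6 (225) and 202 in L5-S100b (318). With DESeq2 it was 2 in L2/3-Calb1, 0 in L2/3-Rorb (136 at an unadjusted p under 0.05), 0 in L5-Bcl6 (49), 11 in L6-Npy, 146 in L5-S100b and 524 in all excitatory neurons (347). With no filter it was 32 in L2/3-Calb1, 28 in L2/3-Rorb and 22 in L5-Bcl6. With no library term it was 0 in L2/3-Rorb (285 at an unadjusted p under 0.05), 0 in L6-Npy (406), 1 in L5-Bcl6, 75 in L6-Syt6 and 56 in L5-S100b. With neurons of 15000 to 35000 UMIs it was 7 in L2/3-Rorb, 0 in L5-Bcl6 (407 at an unadjusted p under 0.05) and 864 in all excitatory neurons. Without marker-positive neurons it was 31 in L2/3-Calb1, 194 in L5-S100b and 186 in all, and L5-Bcl6 could not be fitted. Without 1 library each it ran from 12 to 26 in L2/3-Calb1, 3 to 35 in L2/3-Rorb, 4 to 31 in L5-Bcl6, 46 to 75 in L6-Npy, 29 to 325 in L6-Syt6, 180 to 285 in L5-S100b and 0 to 1423 in all, where the 0 came without each of unsorted libraries 1, 2 and 3 (1613, 1570 and 1595 genes at an unadjusted p under 0.05). Genes whose effect differed between subtypes, 889 as reported, numbered 345 with 1 or more barcode UMIs, 499 without marker-positive neurons and 364 to 1245 without 1 library each, with 0 members in the first of these and 0 to 3 in the last.

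The turned signs were these. With 1 or more barcode UMIs, Cux1 in all excitatory neurons was -0.030, Rorb in L5-S100b 0.11 and Cux2 in L6-Syt6 -0.11. DESeq2 gave 0.12 for Rorb in L5-Bcl6, and neurons of 15000 to 35000 UMIs 0.042. No filter gave 0.018 for Lmo4 in L2/3-Rorb and 0.012 for Cux1 in L5-Bcl6, and no library term -0.089 for Cux2 in L6-Syt6. Without marker-positive neurons, L5-S100b gave 0.22 for Rorb, 0.041 for Lmo4 and 0.0076 for Mef2c, and L6-Syt6 -0.34 for Cux2. Leaving out 1 library each gave ranges that cross 0. Mef2c ran from -0.016 to 0.15 in L2/3-Calb1 and from -0.0044 to 0.035 in L2/3-Rorb. Rorb ran from -0.15 to 0.018 in L2/3-Rorb, -0.50 to 0.54 in L5-Bcl6 and -0.15 to 0.13 in L5-S100b. Lmo4 in L2/3-Rorb ran from -0.048 to 0.0074. Cux1 ran from -0.10 to 0.038 in L5-Bcl6, -0.15 to 0.29 in L5-S100b and -0.15 to 0.11 in all excitatory neurons. Cux2 in L6-Syt6 ran from -0.30 to 0.33.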

Other observations

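Genes that rise with neuronal activity were higher in barcode-high neurons of several subtypes, and none was called lower in any fit. The 1 value below 0 was that of Ier2 in L2/3-Rorb (-0.11, adjusted p 0.906, edgeR with Benjamini-Hochberg adjustment). Of 11 such genes, 10 were called higher in L6-Npy, all but Egr1, where 0.775% of all genes were called, with a list median of 0.80 on the log2 scale against -0.00 over all genes tested. Egr2 (1.23), Egr4 (1.18), the orphan receptor gene Nr4a1 (1.08) and Npas4 (0.87) had adjusted p-values of 7.90e-06, 1.59e-06, 1.35e-06 and 3.40e-05 (edgeR quasi-likelihood test, Benjamini-Hochberg adjustment), each higher in 4 of 4 libraries. In L6-Syt6, 6 were called higher (1.67% of all genes called), in L2/3-Calb1 5 (0.183%), in L5-S100b 3 (2.64%) and in L2/3-Rorb 1, Egr4 (0.142%). None was called by edgeR in L5-Bcl6 (0.0659%) or in all excitatory neurons (2.37%), with 0 and 3 of 11 at an unadjusted p under 0.05. These calls depend on the fit. With no library term 0 genes of any kind were called in L6-Npy or in L2/3-Rorb. DESeq2 called 11 genes of any kind in L6-Npy, 2 in L2/3-Calb1 and 0 in L2/3-Rorb. The list was chosen with earlier results of these data known. Mef2c, whose protein acts downstream of activity, had log2 fold changes of 0.08 in L6-Npy and -0.04 in L6-Syt6, neither called.

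Etv1, a layer 5 ETS factor, moved in opposite directions with the barcode. It was higher in barcode-high L2/3-Rorb neurons (0.83, adjusted p 0.000303) and lower in L6-Syt6 (-0.52, adjusted p 0.00304, edgeR quasi-likelihood test with Benjamini-Hochberg adjustment), in 4 of 4 libraries each. The adjusted p of the difference of its effect between subtypes was 4.05e-07 by the same tool. S100b, the name gene of L5-S100b, was higher in barcode-high L2/3-Rorb neurons (3.60, SE 0.544, adjusted p 8.14e-05, edgeR with Benjamini-Hochberg adjustment), from 3 UMIs in barcode-zero and 149 UMIs in barcode-high neurons. In L2/3-Rorb 0 genes were called by DESeq2 and 0 by edgeR with no library term, so the calls of Etv1 and S100b there were lost under both.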
